A study of Mus musculus with 2 samples.

Results

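The genes described here are the 10 genes of the WEE1, CDK1 and cyclin B axis: *Wee1*, *Pkmyt1*, *Cdk1*, *Ccnb1*, *Ccnb2*, *Ccna2*, *Cdc25a*, *Cdc25b*, *Cdc25c* and *Plk1*. They were chosen by gene symbol from the 45777 symbols of the deposited transcript table, and the estimated counts of the 24 transcripts listed for them were summed per symbol. RNA was sequenced from the livers of C57BL/6 mice fed a high-fat diet (HFD), 1 library with AAV-GFP as the control and 1 with AAV-*Wee1-AS*. Whether a library held 1 liver or several was not stated, and the design text speaks of 4 liver samples, of which these 2 libraries were analysed here. By the methods of the study, C57BL/6 N mice of 7 weeks of age were put on HFD for 18 weeks, and the vector was injected retro-orbitally in diet week 13, 5 weeks before the end. Both libraries therefore share strain, diet and an AAV injection, and differ in the delivered transcript. The vector was an AAV9 with a CMV promoter, which is active in many cell types and not in hepatocytes alone. *Wee1-AS*, the long noncoding RNA delivered, runs antisense to *Wee1* and covers its promoter and first exon. It was not analysed here.

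With 1 library per group, no difference given here has a replicate check, and no p-value was computed. The intervals quoted are 95% counting intervals: they compare these 2 libraries, not the treatments, and cover counting error only. Whether both mates of a read pair were counted was not stated. If they were, the intervals are too narrow, which matters most for limits close to 0. The libraries held 55466182 and 48079335 estimated counts, AAV-GFP first, as in every pair of values that follows. The 10 genes together took 1642 and 1600 of these counts, from 0 counts for *Cdc25c* to 1039 for *Wee1* in a library. All 10 genes were among the 15857 genes with at least 10 counts in either library, *Cdc25c* only through its count in the AAV-GFP library. The 8 hepatocyte markers summed to 112068 and 108785 TPM, a level per transcript length scaled to the same sum in each library, and none of the 8 was at 0. Single markers differed more than this sum, and *Alb* alone had 37459 and 53289 TPM. The 2 highest log2 ratios were those of *Cps1* (1.21) and *Alb* (0.53), the 2 lowest those of *Ttr* (-0.62) and *Apoa2* (-0.52). Above 2-fold was 1 of the 8 and below 0.5-fold 0, beside 22.2% and 8.71% of all genes.

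Entry into mitosis is set by CDK1, a kinase that needs a cyclin to be active. WEE1 and its relative PKMYT1 phosphorylate CDK1 and hold it inactive, the CDC25 phosphatases remove these phosphates, and PLK1 promotes the switch by acting on both sides. Most hepatocytes of an adult liver are not dividing, and RNAs of the CDK1 group are low there, while *Wee1* is also a gene of the circadian clock output. The question put to the data was whether the RNA of this axis differed between the AAV-GFP and AAV-*Wee1-AS* livers. RNA counts do not report the phosphorylation or the activity of CDK1.

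*Wee1* was the most abundant of the 10 genes per transcript length in both libraries, and it was the one gene whose interval lay wholly above a ratio of 1 before any trend with base composition was removed. Its level was 5.69 TPM with AAV-GFP and 10.9 TPM with AAV-*Wee1-AS*. RNAs of *Plk1*, *Ccnb2*, *Pkmyt1* and *Cdc25c* were past 2-fold lower with AAV-*Wee1-AS*, *Ccnb1* lay at that limit, *Cdk1* and *Cdc25a* were lower within it, and *Ccna2* and *Cdc25b* were not distinguishable at this depth. Once the ratios were freed of their trends with GC content and length, *Plk1* and *Pkmyt1* were no longer past 2-fold and *Ccnb1* was. In bulk tissue, fewer cells of a type and less RNA per cell cannot be told apart. Of the 10 genes, 0 were above 2-fold and 4 were below 0.5-fold, beside 22.2% and 8.71% of all genes tested (31.0% in either direction). One of the 4, *Cdc25c*, passed the count minimum only through the library where it was high, and without it 3 of 9 were below. By direction, 2 genes were higher and 8 lower. The counting interval lay wholly below a ratio of 1 for 7 of the 10, against 38.0% of all genes, and wholly above it for 1 of the 10, against 39.1%. The median log2 ratio of the 10 genes was -0.76, that of all genes -0.02. Among the 10483 genes with counts in the same range as the 10, 11.1% were below 0.5-fold and 26.0% above 2-fold (37.0% in all), and the interval lay wholly below a ratio of 1 for 29.4% and wholly above it for 39.5%.

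**Figure D1:**
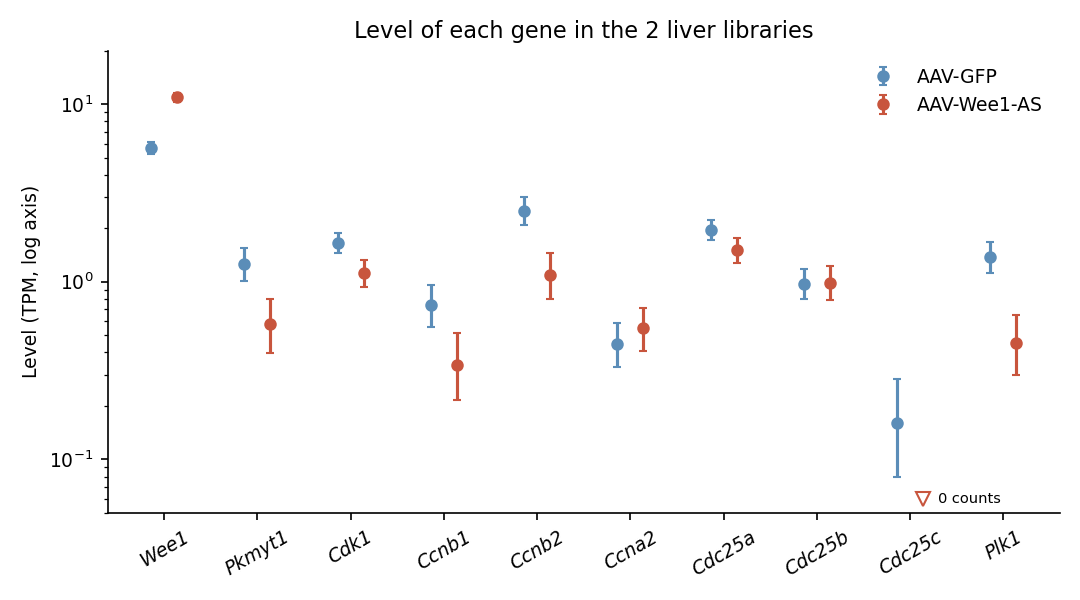
Level of each of the 10 genes in TPM on a log axis, 1 point per library (blue, AAV-GFP; red, AAV-*Wee1-AS*), with exact 95% Poisson intervals of the counts, which cover counting error only; the open triangle marks the 0 counts of *Cdc25c*. *Wee1* stands above the other 9 genes in both libraries, and the intervals of the 2 libraries overlap for *Ccna2*, *Cdc25a* and *Cdc25b* alone.

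By level per length, the order with AAV-GFP was *Wee1*, *Ccnb2*, *Cdc25a*, *Cdk1*, *Plk1*, *Pkmyt1*, *Cdc25b*, *Ccnb1*, *Ccna2* and *Cdc25c*. Neighbours in this order had overlapping intervals, apart from *Wee1* against *Ccnb2* and *Ccna2* against *Cdc25c*. With AAV-*Wee1-AS*, *Wee1* was followed by *Cdc25a*, *Cdk1*, *Ccnb2*, *Cdc25b*, *Pkmyt1*, *Ccna2*, *Plk1*, *Ccnb1* and *Cdc25c*. There, only *Wee1* against *Cdc25a* and *Ccnb1* against *Cdc25c* had intervals apart. *Plk1* and *Ccnb2* therefore stood lower in the second order, and *Cdc25b* and *Ccna2* higher.

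Among the inhibitory kinases, *Wee1* was higher and *Pkmyt1* lower in the plain ratios. *Wee1* lies at chr7:110122059-110143299 of mm10, and its 2 transcripts summed to 635 counts with AAV-GFP and 1039 with AAV-*Wee1-AS*. Scaled for depth, this was a 1.96-fold higher count (interval 1.78 to 2.17), or a log2 ratio of 0.97. The value is just under the 2-fold limit, and the interval holds that limit. *Pkmyt1*, which encodes the membrane-bound kinase MYT1 (chr17:23726336-23736735), had 86 and 34 counts, and its level was 1.26 and 0.576 TPM. Its scaled count was 2.11-fold lower with AAV-*Wee1-AS*. With the prior count of 2 used for all genes, its log2 ratio was -1.04 (interval -1.69 to -0.49). The ratio of the *Wee1* level to the *Pkmyt1* level in TPM was 4.51 with AAV-GFP and 19.0 with AAV-*Wee1-AS*. The log2 ratios of the 2 genes differed by 2.01, and by 1.30 after the trends with GC content and length were removed, when the interval of *Pkmyt1* held 0. *Pkmyt1* shares 550 bases with the neighbouring gene *Paqr4*, which had 227 and 110 counts, and reads on these bases could have been assigned to either gene.

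The higher *Wee1* count was carried by 1 of its 2 transcripts. NM_009516, of 3419 bases, had 482 and 951 counts and a log2 ratio of 1.24 (interval 1.08 to 1.41). NM_001355058, of 3272 bases, had 153 and 88 counts and a log2 ratio of -0.53 (interval -0.93 to -0.15). The longer transcript thus took 75.2% of the *Wee1* level in TPM with AAV-GFP and 91.2% with AAV-*Wee1-AS*. The transcripts differ by 147 bases, which equals the length of exon 6 of the GENCODE transcript Wee1-201 (chr7:110130829-110130975), the only one of its 11 exons of that length. Such shares are estimates made by the quantification program, and they have no error of their own.

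Because the delivered RNA is antisense to *Wee1*, the strand of the reads matters for this gene. Exon 1 of Wee1-201 spans chr7:110122046-110122925, 880 bases or 25.7% of the exonic length. The libraries were made with a kit that keeps strand, but the strand setting of the quantification was not given in the sources used here. If it ignored strand, *Wee1* reads and antisense reads over exon 1 cannot be told apart. Its paralog *Wee2*, a kinase of oocytes, had 0 counts in both libraries.

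**Figure D2:**
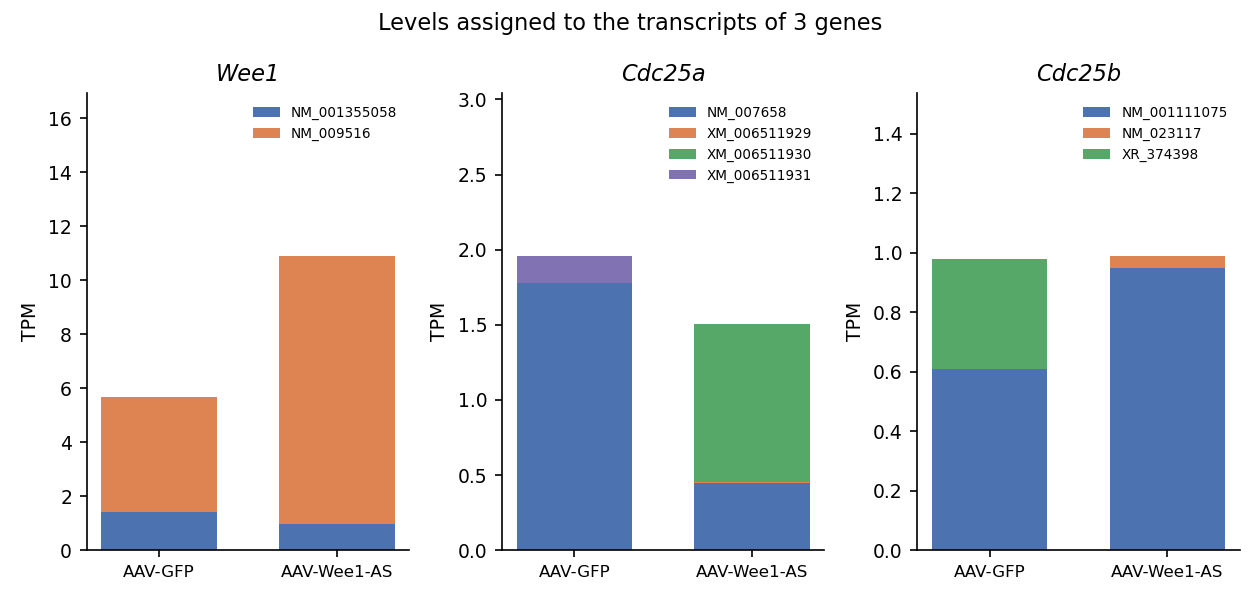
Level in TPM assigned to each RefSeq transcript of *Wee1*, *Cdc25a* and *Cdc25b*, stacked per library, 1 library per bar and with no error bars because the shares are estimates. The longer *Wee1* transcript NM_009516 grows from 4.27 to 9.96 TPM, and the transcript with the most of the *Cdc25a* level differs between the libraries, while NM_001111075 takes the most of *Cdc25b* in both.

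CDK1 and the B-type cyclins form the kinase on which WEE1 acts. Promoter sequence was at hand from RefSeq (build GRCm38.p6) for *Ccnb1*, *Ccnb2*, *Cdk1*, *Plk1*, *Cdc25a* and *Cdc25b*, and not for *Wee1*, *Pkmyt1*, *Ccna2* and *Cdc25c*. In dividing cells, genes of this kind are switched through CCAAT boxes, bound by NF-Y, and through the cell cycle homology region (CHR), bound by the DREAM and MuvB-FOXM1 complexes. The windows run from 250 bases before to 50 bases after the gene start, and the 4 shown belong to the mitotic kinases and cyclins that were lower with AAV-*Wee1-AS*, so that the arrangement of these letters can be compared. They are chr13:100786437-100786736 on the minus strand for *Ccnb1*, chr9:70421505-70421804 on the minus strand for *Ccnb2*, chr10:69352863-69353162 on the minus strand for *Cdk1*, and chr7:122159185-122159484 on the plus strand for *Plk1*. Each is written 5′ to 3′ along the gene, and capitals mark CCAAT or its reverse ATTGG, and the CHR letters TTTGAA (reverse TTCAAA).
Ccnb1: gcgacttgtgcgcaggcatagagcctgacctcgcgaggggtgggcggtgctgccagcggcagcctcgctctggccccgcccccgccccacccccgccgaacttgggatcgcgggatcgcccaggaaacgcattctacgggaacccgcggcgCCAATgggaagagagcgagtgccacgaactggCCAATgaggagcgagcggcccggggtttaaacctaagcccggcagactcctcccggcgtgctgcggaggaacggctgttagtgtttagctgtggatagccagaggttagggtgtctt
Ccnb2: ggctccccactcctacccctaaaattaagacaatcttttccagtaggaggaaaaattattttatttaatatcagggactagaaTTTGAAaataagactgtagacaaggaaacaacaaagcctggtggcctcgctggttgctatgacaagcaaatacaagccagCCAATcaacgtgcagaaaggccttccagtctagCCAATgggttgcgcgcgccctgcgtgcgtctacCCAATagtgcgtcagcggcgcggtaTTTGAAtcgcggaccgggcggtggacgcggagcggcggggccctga
Cdk1: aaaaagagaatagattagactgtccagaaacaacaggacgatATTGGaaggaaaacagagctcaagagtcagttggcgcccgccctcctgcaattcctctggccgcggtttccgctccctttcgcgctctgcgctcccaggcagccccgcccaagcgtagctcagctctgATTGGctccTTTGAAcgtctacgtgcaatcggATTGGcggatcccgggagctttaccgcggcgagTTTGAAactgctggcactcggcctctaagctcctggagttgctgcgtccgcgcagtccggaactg
Plk1: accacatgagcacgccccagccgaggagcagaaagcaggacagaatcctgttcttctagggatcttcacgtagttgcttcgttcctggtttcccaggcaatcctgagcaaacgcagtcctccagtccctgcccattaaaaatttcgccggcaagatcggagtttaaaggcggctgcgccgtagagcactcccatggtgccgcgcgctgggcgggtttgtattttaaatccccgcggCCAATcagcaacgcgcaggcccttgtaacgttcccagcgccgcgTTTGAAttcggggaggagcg

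All 6 windows at hand held a CCAAT box on either strand, as did 37.4% of the 32851 mouse promoters of the same length, and 3 held a CHR, as did 17.9% of them. *Ccnb1* had CCAAT 99 and 67 bases before the start, 32 bases apart, and no CHR letters. *Ccnb2* had 3 CCAAT boxes at 87, 54 and 21 bases before the start, each 33 bases from the next, and CHR letters 167 bases before and 4 bases after it. *Cdk1* had the reverse letters ATTGG 208, 80 and 48 bases before the start, the last 2 of them 32 bases apart, and CHR letters at 71 and 15 bases before it. *Plk1* had a single CCAAT 14 bases before and a CHR 30 bases after the start. *Cdc25a* and *Cdc25b*, whose windows are not printed, had ATTGG letters only. The clock E-box CACGTG, the same on both strands, was in 0 of the 6 windows and in 7.15% of all promoters. These matches describe letters in the windows and say nothing on binding in these livers.

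*Ccnb2*, the B-type cyclin found at the Golgi apparatus, fell past 2-fold and *Ccnb1*, the cyclin required for mitosis, lay at the limit. *Ccnb2* had 128 counts with AAV-GFP and 47 with AAV-*Wee1-AS*, at 2.51 and 1.09 TPM, a log2 ratio of -1.15 (interval -1.70 to -0.69). *Ccnb1* had 57 and 23 counts, at 0.736 and 0.342 TPM. Its scaled ratio was 0.484, and with the prior count of 2 used for all genes its log2 ratio was -0.99 (interval -1.81 to -0.32), which left it just outside the count of genes below 0.5-fold. The pseudogene *Ccnb1-ps* had 1 and 0 counts. *Ccnb2* was at 3.41 times the *Ccnb1* level in TPM with AAV-GFP and 3.19 times with AAV-*Wee1-AS*. The log2 ratio of *Ccnb2* minus that of *Ccnb1* was -0.16, and 0.61 after the trends were removed, on 23 *Ccnb1* counts in 1 library.

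*Cdk1* itself had 238 and 136 counts, at 1.66 and 1.11 TPM. Its log2 ratio was -0.54 (interval -0.86 to -0.23), a 31.4% lower scaled count. *Cdk1* stood closer to parity than *Ccnb1* or *Ccnb2*, but its interval overlapped those of both. After the trends were removed, *Cdk1* was at -0.99 and *Ccnb2* at -1.12. The *Wee1* to *Cdk1* ratio of levels in TPM, kinase over substrate, was 3.43 with AAV-GFP and 9.80 with AAV-*Wee1-AS*.

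*Ccna2*, the A-type cyclin of S and G2 phase that binds both CDK2 and CDK1, did not share the lower values of the B-type cyclins. It had 50 and 52 counts, at 0.444 and 0.546 TPM, and a log2 ratio of 0.31 (interval -0.27 to 0.91). A difference was not detectable at this depth. The interval does not overlap that of *Ccnb2*, whose level in TPM went from 5.66 to 2.00 times that of *Ccna2*. After the trends were removed, the intervals of the 2 genes overlapped. *Ccna2* shares 863 bases with *Exosc9*, which had 247 and 396 counts, so that part of its reads may have been assigned to the neighbour, or the reverse.

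Of the phosphatases that remove the WEE1 phosphate, *Cdc25a* was the most abundant in both libraries with all transcripts summed. With AAV-*Wee1-AS*, however, its curated transcript NM_007658 had 0.444 TPM and NM_001111075 of *Cdc25b* had 0.947 TPM. *Cdc25a*, which also acts on CDK2 at the start of S phase, had 232 and 156 counts, at 1.96 and 1.51 TPM, a log2 ratio of -0.31 (interval -0.61 to -0.00994). *Cdc25b*, thought to start the activation of CDK1 at the centrosome, had 104 and 85 counts, at 0.977 and 0.990 TPM. Its log2 ratio of -0.03 (interval -0.46 to 0.40) was not distinguishable from no difference at this depth. *Cdc25c*, which is activated by PLK1 and CDK1 at mitotic entry, had 11 and 0 counts, an at least 3.05-fold lower value with the absent count set to 3, while its counting interval reached up to a log2 ratio of -1.06. Its level of 0.159 TPM with AAV-GFP was the lowest of the 10 genes, and it overlaps *Gm3550*, with 0 and 8 counts.

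The sums of *Cdc25a* and *Cdc25b* covered larger shifts between transcripts. The RefSeq transcript NM_007658 of *Cdc25a* had 213 and 45 counts, while the predicted transcript XM_006511930 had 0 and 110 and XM_006511931 had 19 and 0. The share of NM_007658 in the *Cdc25a* level in TPM was thus 90.8% with AAV-GFP and 29.5% with AAV-*Wee1-AS*. For *Cdc25b*, NM_001111075 had 61 and 81 counts, and XR_374398, listed as a miscellaneous RNA, had 43 and 0. When curated transcripts alone were summed, the log2 ratio was -1.90 for *Cdc25a* and 0.76 for *Cdc25b*. The values of these phosphatases therefore depended on how reads were shared out. Of the 24 transcripts of the 10 genes, 7 were at 0 in both libraries, and 5 genes (*Cdk1*, *Ccnb1*, *Ccnb2*, *Ccna2* and *Plk1*) had a single transcript.

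*Plk1*, the polo-like kinase that phosphorylates WEE1 for its destruction and activates CDC25, had the lowest plain log2 ratio among those of the 10 genes with counts in both libraries, though not after the trends were removed, with curated transcripts or the highest transcript only, or on the FPKM and TPM scales. It had 101 counts with AAV-GFP and 28 with AAV-*Wee1-AS*, at 1.38 and 0.451 TPM. The scaled count was 3.005-fold lower. With the prior count of 2, the log2 ratio was -1.53 (interval -2.25 to -0.97), and with the trends removed it was -0.88, no longer past 2-fold. *Plk1* had 3.10 times the *Ccna2* level in TPM with AAV-GFP and 0.826 times with AAV-*Wee1-AS*. Their log2 ratios differed by -1.84, and by -0.72 after the trends were removed, when their intervals overlapped. Its processed pseudogene *Plk-ps1* had 0 counts in both libraries.

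**Figure D3:**
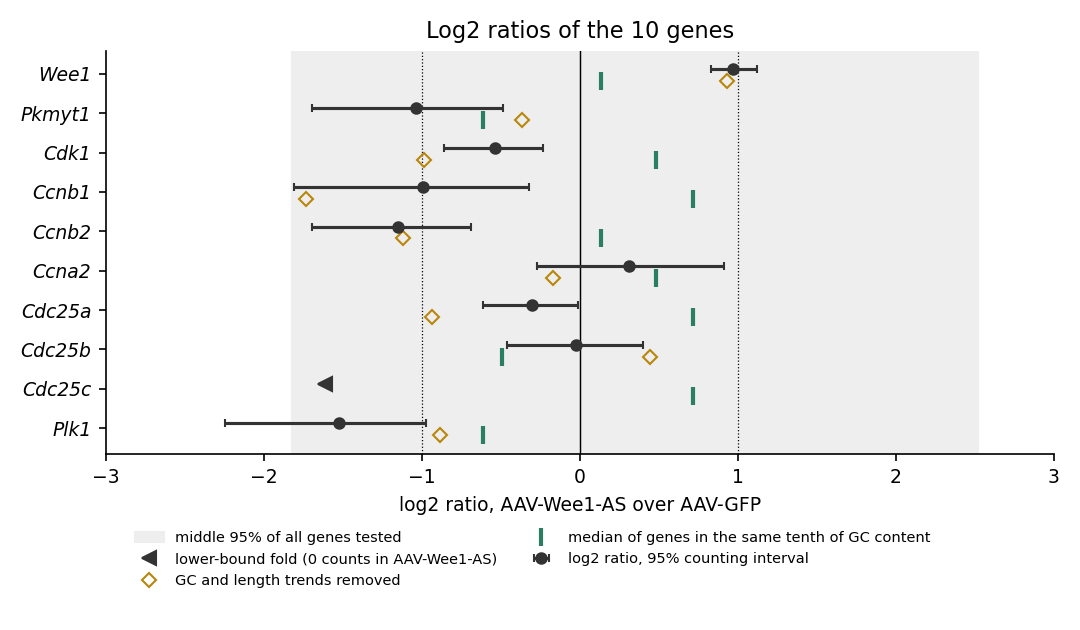
Log2 ratio of AAV-*Wee1-AS* over AAV-GFP for the 10 genes, with 95% counting intervals, the 2-fold limits (dotted) and the middle 95% of all genes tested (grey, -1.82 to 2.52); green bars are medians of genes of similar GC content, open diamonds the values after removal of trends with GC content and length (not drawn for *Cdc25c*, whose filled triangle marks its bound). *Wee1* is the one gene with a drawn interval above 0, and the diamonds of *Cdk1*, *Ccnb1* and *Cdc25a* lie further to the left than their points.

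Base composition moved with the log2 ratio across all genes of these 2 libraries. By decile of GC content, taken from the longest GENCODE transcript of 14995 genes, the median log2 ratio went from 1.43 in the lowest decile to -0.69 in the highest. The share of genes above 2-fold went from 65.4% to 1.20%, and that below 0.5-fold from 1.13% to 20.6%. The 10 genes ranged from 44.1% GC in *Cdc25c* to 57.2% in *Pkmyt1*, and 8 of them lay below the median of their own decile. The part of base composition in the results was not tested.

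For *Ccnb1* (44.2% GC), genes of its decile had a median log2 ratio of 0.72, and its own value of -0.99 became -1.73 after the trends with GC content and length were removed. *Cdk1* (47.8% GC) went from -0.54 to -0.99, and *Cdc25a* (46.0% GC) from -0.31 to -0.94 in the same way. These AT-richer genes were further below their surroundings than the plain ratios show. At the other end, *Plk1* (56.0% GC) went from -1.53 to -0.88, and *Pkmyt1* (57.2% GC) from -1.04 to -0.36, where genes of their decile had a median of -0.61. After removal, the shifted interval of *Pkmyt1* ran from -1.02 to 0.19 and that of *Plk1* from -1.60 to -0.33. *Wee1* (49.8% GC) and *Ccnb2* (49.3% GC) moved little, from 0.97 to 0.93 and from -1.15 to -1.12. *Ccna2* changed sign, from 0.31 to -0.17, and *Cdc25b* also, from -0.03 to 0.44, where its shifted interval lay wholly above 0 (0.011 to 0.87). After removal, 3 of the 10 genes were below 0.5-fold (*Ccnb1*, *Ccnb2* and *Cdc25c*), and 0 were above 2-fold, beside 8.92% and 6.93% of all genes. By direction, 8 of 10 were below 0, with *Cdc25c* among them. The median of the 10 genes was -0.91, that of all genes -0.02.

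**Figure D4:**
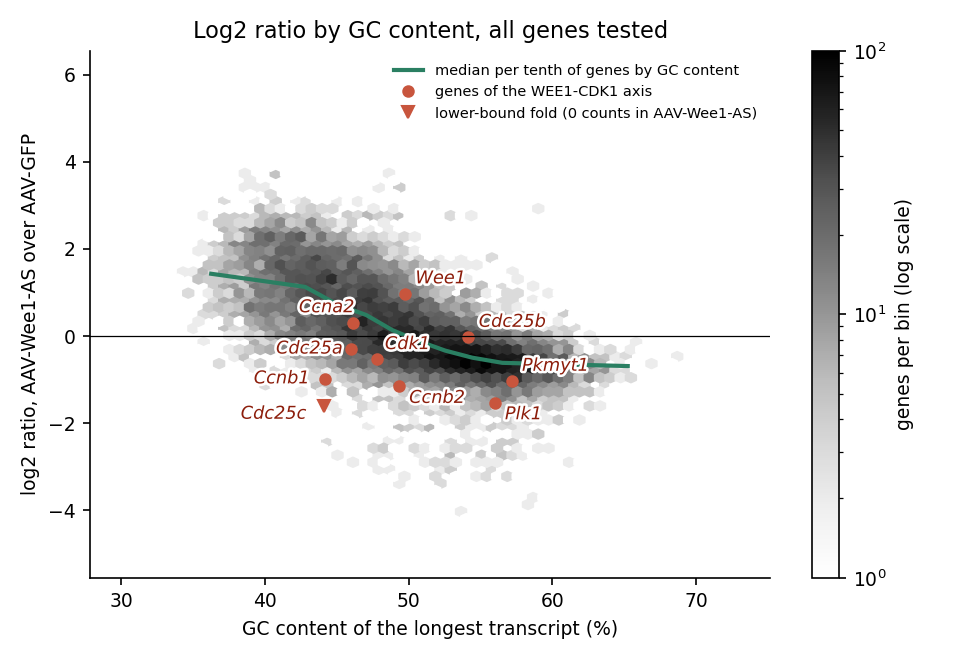
Log2 ratio of AAV-*Wee1-AS* over AAV-GFP against GC content in percent for all genes with a known GC content (grey bins, darker for more genes), the median per decile (green) and the 10 genes (red; triangle, *Cdc25c* at its bound). The median falls from 1.43 to -0.69 along the axis, and of the 10 genes, *Wee1* and *Cdc25b* lie above the line.

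Around the 10 genes, 78 further genes of CDK1 control were listed by role, of which 75 passed the count minimum. Of these, 13 were above 2-fold and 6 below 0.5-fold (17.3% and 8.0%, beside 22.2% and 8.71% of all genes), and the median log2 ratio was 0.08. After removal of the trends, 4 were above and 11 below, beside 6.93% and 8.92% of all genes. Of the 6 genes tested for the CDK-activating kinase, the CKS subunits and CDK2, 0 were past 2-fold, beside 31.0% of all genes. *Cdk7* was at 0.88, *Ccnh* at 0.76 and *Cks1b* at -0.35. With the trends removed these 3 were at 0.15, -0.43 and -0.29. *Aurka*, the kinase that activates PLK1, had 106 and 94 counts and a log2 ratio of 0.09, and its partner *Bora* had 29 and 50 counts and 1.00 (0.11 with the trends removed). With curated transcripts only, or the highest transcript only, *Aurka* was past 2-fold lower.

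The checkpoint kinases and their mediators act on CDC25 and WEE1 after DNA damage. Of 7 such genes, 4 were above 2-fold, beside 22.2% of all genes. This was the highest share above 2-fold of the pathway lists, and the list's median log2 ratio was 1.82. Of the 4, *Chek1* (9 and 60 counts) passed the count minimum only through the AAV-*Wee1-AS* library. *Atr* had 68 and 584 counts, a log2 ratio of 3.32, and *Atm* had 77 and 493, a log2 ratio of 2.91. After removal of the trends, 4 of 7 were above 2-fold, beside 6.93% of all genes. *Atr* was then at 1.49, *Atm* at 1.17 and *Chek1* at 1.42. *Atrip* and *Chek2* were at 0.21 and 0.30.

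The factors that act on transcription of G2/M genes were listed together, activators and the DREAM repressors alike. Of 13 tested, 5 were above 2-fold and 1 below, beside 22.2% and 8.71% of all genes. The repressors *Rbl1* and *Rbl2*, picked out after their values were seen, were 2 of the 5, at 1.36 and 1.39 (0.0057 and 0.72 with the trends removed). *Lin37* of the same complex was at -0.72, and at -0.026 with the trends removed. The 1 below was *Foxm1*, the activator of G2/M genes, with 125 and 46 counts and a log2 ratio of -1.15 (-0.88 after removal of the trends). *Lin54*, the MuvB subunit that contacts the CHR, had 92 and 330 counts and a log2 ratio of 2.08, which was 0.74 after removal. With the trends removed, 0 of the 13 were above 2-fold and 1 below 0.5-fold, beside 6.93% and 8.92% of all genes. The 1 below was then another gene than *Foxm1*.

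The ubiquitin ligase APC/C, which ends mitosis by destroying cyclin B, had 2 of 19 genes above 2-fold and 1 below. These were 10.5% and 5.26%, beside 22.2% and 8.71% of all genes. Its mitotic activator *Cdc20* fell from 218 to 82 counts, a log2 ratio of -1.13, and *Cdc27* rose from 240 to 932, a log2 ratio of 2.21. With the trends removed these were -0.46 and 0.62. Then 0 of the 19 were above 2-fold and 2 below 0.5-fold, beside 6.93% and 8.92% of all genes. Of the 5 genes of SCF beta-TrCP, the ligase that destroys WEE1, 1 was past 2-fold, beside 31.0% of all genes. This was *Cul1* at 1.48 (0.66 after removal). After removal 2 of 5 were below 0.5-fold instead, beside 8.92% of all genes. These were *Btrc*, the beta-TrCP gene itself, at -1.53 and *Rbx1* at -1.003, the latter picked out after its value was seen. Their plain log2 ratios were -0.06 and -0.02. *Btrc* was at 0.23 with curated transcripts only and at -0.99 with the highest transcript only.

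The CDK inhibitor *Cdkn1a* (p21), its activator *Trp53* and 3 GADD45 genes formed 1 list. Of these 5 genes, 3 were below 0.5-fold and 0 above 2-fold, beside 8.71% and 22.2% of all genes. After removal of the trends 1 of 5 was below and 0 above, beside 8.92% and 6.93% of all genes. *Cdkn1a* had 2044 and 602 counts and a log2 ratio of -1.50, and *Gadd45b*, an inhibitor of CDK1, had 106 and 12 counts and -2.71. After removal of the trends these values were -0.94 and -1.99. *Gadd45a* was at 0.70 and *Trp53* at -0.87. *Trp53* was at -1.13 with curated transcripts only, -1.67 with the highest transcript only and -0.49 with the trends removed. *Mastl*, the Greatwall kinase that protects CDK1 phosphorylations, had 11 and 34 counts and 1.71, which was 0.14 after removal. It was the only one of the 7 Greatwall and PP2A-B55 genes past 2-fold, beside 31.0% of all genes. With the trends removed 3 of the 7 were below 0.5-fold, beside 8.92% of all genes. Among them was *Ensa*, the substrate of Greatwall, at -1.05. Of 7 genes for 14-3-3 proteins, which hold CDC25 in the cytoplasm, 1 was past 2-fold, beside 31.0% of all genes. This was *Sfn* at -1.16, which was -0.37 with the trends removed. Then 0 of the 7 were past 2-fold, beside 6.93% of all genes above 2-fold and 8.92% below 0.5-fold.

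Of 3 mitochondrial proteins described as CDK1 substrates, 0 were past 2-fold in RNA in the plain ratios, beside 31.0% of all genes. With the trends removed 2 were below 0.5-fold, beside 8.92% of all genes. The log2 ratio was -0.25 for *Atp5a1*, a subunit of ATP synthase, -0.57 for *Sirt3*, a deacetylase, and 0.14 for *Sod2*, a superoxide dismutase. After removal of the trends, *Sirt3* was at -1.05, *Sod2* at -1.32 and *Atp5a1* at 0.28.

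**Figure D5:**
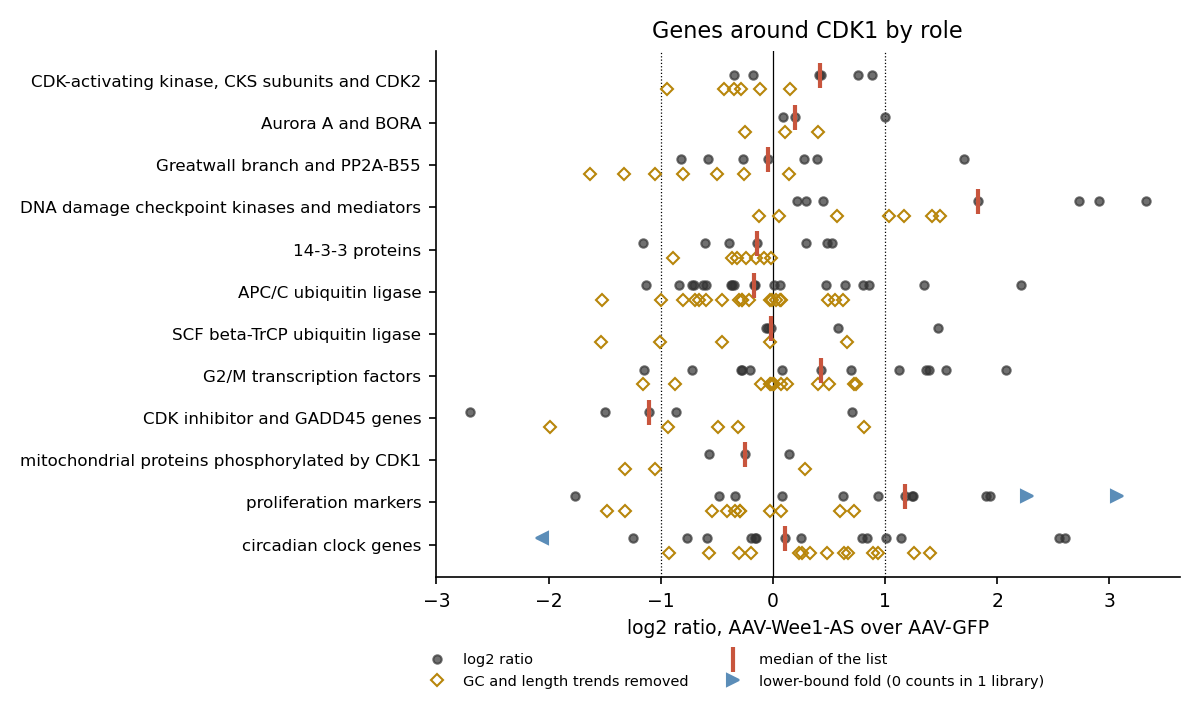
Log2 ratio of AAV-*Wee1-AS* over AAV-GFP for each gene of the lists around CDK1, 1 row per list (points), with the list's median (red), the values after removal of the trends with GC content and length (open diamonds) and lower bounds for genes at 0 counts in 1 library (triangles). The checkpoint list has a median of 1.82, and the median of the proliferation markers, 1.18, lies above 0 while most of their diamonds lie below it.

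Markers of dividing cells were counted beside the axis. Of 14 proliferation markers, *Bub1* was at 0 in both libraries, and of the 13 tested, 7 were above 2-fold and 1 below 0.5-fold, beside the 22.2% and 8.71% of all genes. Of the 7, *Cenpf* (0 and 21 counts) and *Ttk* (0 and 12 counts) passed the count minimum only through the AAV-*Wee1-AS* library. The levels of all markers summed to 6.78 and 6.69 TPM. *Kif11*, a mitotic motor, had 10 and 37 counts and a log2 ratio of 1.94, and *Aurkb*, the kinase of the chromosomal passenger complex, had 87 and 20 counts and -1.77. With the trends removed, the list's median went from 1.18 to -0.29, 2 genes were above 2-fold (*Cenpf* and *Ttk*) and 2 below, beside 6.93% and 8.92% of all genes. The part of dividing cells in the lower values of *Plk1*, *Ccnb1* and *Ccnb2* was not tested.

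The circadian genes were listed because *Wee1* is a clock-controlled gene in liver and the time of tissue collection was not given in the sources used here. Of 15, 4 were above 2-fold and 2 below (26.7% and 13.3%, beside 22.2% and 8.71% of all genes). Of the 2 below, *Npas2* (15 and 0 counts) passed the count minimum only through the AAV-GFP library. After removal of the trends, 2 were above and 1 below, beside 6.93% and 8.92% of all genes. *Nr1d2*, a repressor of the clock loop, had 666 and 3389 counts and a log2 ratio of 2.61, and *Nr1d1*, its close relative, had 7777 and 2733 counts and -1.24. *Clock* was at 2.55 and *Per1* at -0.76. Once the trends were removed, *Nr1d2* stood at 1.26, *Nr1d1* at -0.57, *Clock* at 0.63 and *Per1* at -0.30. The part of the clock in the *Wee1* value was not tested.

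Markers of the other liver cells were also compared, as any of these cells may divide or carry the vector. The 10 macrophage and Kupffer cell markers summed to 885 and 558 TPM, with 3 above 2-fold and 2 below, beside 22.2% and 8.71% of all genes. Those above included *Marco* at 1.60 and *Vsig4* at 1.52, and those below were *C1qb* at -1.01 and *C1qc* at -1.03. With the trends removed, 1 of the 10 was above 2-fold and 0 below 0.5-fold, beside 6.93% and 8.92% of all genes. *Marco* was then at 2.19, *Vsig4* at 0.87, *C1qb* at -0.28 and *C1qc* at -0.29. The 4 neutrophil markers summed to 13.03 and 6.18 TPM, and *Ly6g* was at 0 in both libraries. Of 3 tested, 2 were below 0.5-fold before and after removal of the trends, beside 8.71% and 8.92% of all genes. Sums were 4.49 and 3.90 TPM for the 7 T and NK cell markers, 3.91 and 3.14 for the 4 B cell markers, 126 and 104 for the 5 sinusoidal endothelial markers, and 115 and 117 for the 6 stellate cell markers. Of the T and NK cell markers, 2 of 7 were below 0.5-fold and 1 above 2-fold, beside 8.71% and 22.2% of all genes. These were *Cd8a* at -2.25 and *Nkg7* at -1.02, and *Cd4* at 1.02. With the trends removed they were at -2.61, -0.51 and 1.31. *Cd8a* (31 and 4 counts) passed the count minimum only through the AAV-GFP library. Single stellate markers differed more than their sum, with 2 of 6 below 0.5-fold and 1 above 2-fold, beside 8.71% and 22.2% of all genes. These were *Col1a1* at -2.32 and *Pdgfrb* at -1.09, and *Lrat* at 1.46. With the trends removed these were -2.04, -0.91 and 0.03, and *Dcn* went from 0.33 to -1.20. The 4 cholangiocyte markers summed to 3.77 and 3.59 TPM. The macrophage and neutrophil sums were thus lower together with the lower RNAs of *Plk1*, *Pkmyt1* and the B-type cyclins. By smaller factors, so were the T and NK cell, B cell, endothelial and cholangiocyte sums. The part of these cells in the results was not tested.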

How the data were processed

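Poly-A RNA of mouse liver was sequenced as 2 stranded paired-end libraries. The authors deposited 1 table of 129299 RefSeq transcripts of mm10, which holds a length and, per library, an estimated count, an FPKM value and a TPM value. The deposited FPKM and TPM values are scaled per transcript length and library. The deposited estimated counts are not normalized. They equal FPKM times length times a constant, rounded up, for 96.9% and 97.3% of nonzero values, and so are shares assigned to overlapping transcripts. Trimmomatic 0.38, HISAT2 2.1.0, SAMtools 1.9 and StringTie 2.1.3b are named in the submitters' processing notes, without their settings. All measurement columns belonged to these libraries (0 others).

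Counts and TPM were summed per symbol. Counts were scaled by TMM (edgeR 4.0.16, R 4.3.3; factors 1.02 and 0.980), and log2 ratios used a prior count of 2. Genes with 10 counts in either library were tested. Genes past 2-fold (above 2 or below 0.5) were counted, and exact Clopper-Pearson 95% intervals of each ratio were computed. Folds against 0 used a floor of 3 counts per library, which left the median of each list as it was. GC content came from the longest GENCODE M21 transcript and was found for 14995 genes (94.6%). Lowess trends with GC content and length were removed in turn (span 0.3, 5 cycles). Python 3.11.15, numpy 2.4.6, pandas 2.3.3, scipy 1.17.1, statsmodels 0.14.6 and matplotlib 3.10.9 were used, and the steps were tested on simulated data.

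The members and gene lists were chosen with earlier results of these data known. Named genes were all 10 members, their transcripts with at least 10 counts, and from each list the 2 highest and 2 lowest genes of at least 30 counts in a library, or those at 0 in both, and some of these are described here. *Cenpf*, *Ttk*, *Npas2*, *Rbl1*, *Rbl2*, *Rbx1* and *Chek1* fall outside this rule and were named after their values were seen. Alternatives were scaling by the upper quartile, by library totals or by the size factors of DESeq2 1.42.0, a prior count of 0.5, no filter, 10 counts in both libraries, 50 counts in either, FPKM or TPM with a pseudocount of 1, counts before rounding, curated transcripts only, the highest transcript only, and removal of the GC trend alone or with length.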

Additional observations from a re-analysis of the deposited data

How the results depend on the processing

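No paired analysis was possible because there was 1 library per group, and no library could be left out. Of the main values and counts under the alternatives, 191 stayed within their spread, 59 moved and 0 changed the sign of a value past 2-fold, and the cause was not tested. The upper quartile, which shifted the median of all genes by -0.20, gave *Wee1* a log2 ratio of 0.77. It put 2 clock genes above 2-fold, beside 18.5% of all genes.

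On the scale of log2(FPKM + 1), which understates the change of low genes, the values were 0.73 for *Wee1*, -0.35 for *Pkmyt1*, -0.23 for *Ccnb1*, -0.56 for *Ccnb2*, -0.11 for *Cdc25c* and -0.47 for *Plk1*, and with TPM in place of FPKM they were -0.21 for *Cdc25c* and -0.71 for *Plk1*. The number of the 10 genes below 0.5-fold, 4 by counts, was 0 on both scales, where 1.94% (FPKM) and 2.76% (TPM) of all genes were below it. Of all genes, 6.49% (FPKM) and 10.1% (TPM) were above 2-fold, beside 22.2% by counts. Pathway genes above and below the limits, 13 and 6 by counts, numbered 3 and 1 by FPKM and 8 and 3 by TPM. Proliferation markers, 7 and 1 by counts, numbered 0 and 0 by FPKM and by TPM, and clock genes, 4 and 2 by counts, numbered 2 and 1 by FPKM and by TPM.

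With the highest transcript only, the values were 1.27 for *Wee1*, -1.91 for *Cdc25a* and 0.68 for *Cdc25b*, 1 of the 10 genes (*Wee1*) was above 2-fold, and 20 pathway genes were, beside 24.4% of all genes. With curated transcripts only, they were -1.90 for *Cdc25a* and 0.76 for *Cdc25b*. Then 1 of the 10 genes was above 2-fold (22.8% of all genes), and 2 proliferation markers were below 0.5-fold (11.1% of all genes). At 50 counts in either library, 1 proliferation marker was above 2-fold and 1 clock gene below 0.5-fold, beside 22.1% and 6.44% of all genes. Markers such as *Kif11* (10 and 37 counts) did not pass that minimum. At 10 counts in both libraries 1 clock gene was below 0.5-fold, beside 6.13% of all genes.

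With the GC trend removed, the values were -0.43 for *Pkmyt1*, -0.89 for *Cdk1*, -1.90 for *Ccnb1*, -0.30 for *Ccna2*, -0.94 for *Cdc25a*, 0.41 for *Cdc25b* and -0.97 for *Plk1*. With the length trend also removed, they were -0.36 for *Pkmyt1*, -0.99 for *Cdk1*, -0.94 for *Cdc25a*, 0.44 for *Cdc25b* and -0.88 for *Plk1*. Pathway genes above and below the limits then numbered 4 and 12 with the GC trend removed and 4 and 11 with both removed, and proliferation markers 2 and 2 either way. Clock genes below 0.5-fold were 1 either way, and those above 2-fold were 2 with both trends removed.

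The log2 ratio of *Wee1* was above 0 under each alternative, from 0.73 to 1.27, and those of *Pkmyt1*, *Cdk1*, *Ccnb1*, *Ccnb2*, *Cdc25a*, *Cdc25c* and *Plk1* were below 0 under each that gave a value, while *Ccna2* (-0.30 to 0.35) and *Cdc25b* (-0.23 to 0.76) took both signs. Depth limits the low genes most: *Cdc25c*, *Ccnb1* and *Ccna2* rest on fewer than 60 counts in each library, and no alternative adds a replicate.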
